A study of Homo sapiens with 6 samples.

Results

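The genes described here are 10 targets of the transcription factor p53, grouped under growth arrest although not every member restrains growth. They are CDKN1A, GADD45A, GADD45B, PLK2, PLK3, BTG2, MDM2, TP53I3, ZMAT3 and TP53INP1. They were taken by symbol from the authors' comparison table, and all 10 were found among its 15243 genes. The table comes from Ribo-seq, the sequencing of mRNA fragments that ribosomes protect from digestion, in NCI-H1299 cells, a human lung cancer line that is known to lack p53. The 6 samples were 3 with a knockdown hairpin aimed at ALDH18A1 (labelled shALDH18A1), the gene of the proline synthesis enzyme P5CS, and 3 with a control hairpin (shControl, called puro in the design text), all grown in RPMI1640 with serum. The sources used here do not say whether the replicates were separate cultures, how many hairpins were used or how many clones. The study asked how P5CS acts on translation as an RNA-binding protein.

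The table gives, for each gene, a mean normalized count over libraries, a fold change, the standard error (SE) of that fold change and p-values, and no value for any single sample, so the spread between replicates enters only through the SE and the depth of each library is unknown. Base 2 of the fold change was taken from the column layout. Whether footprints alone or their ratio to RNA entered the fold is not stated. The authors' label for the comparison, DTEG, does not by itself settle it. In either case the fold change is not one of mRNA level alone. The reference group is not stated either. Higher and lower below therefore mean a positive or negative sign in the table and say nothing of which of shALDH18A1 and shControl had more. A gene was called at an adjusted p under 0.05 in the authors' deposited table, ± is the table's SE, and intervals are 95% normal intervals from it. Mean counts grow with the length of the sequence counted, so they are given for the precision they bring and not as levels of expression. The only exception is a rough check of the cell line at the end.

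When DNA is damaged or growth is disturbed, p53 binds a paired DNA element near its target genes and raises their transcription. CDKN1A encodes p21, which blocks cyclin-dependent kinases, and MDM2 encodes the ubiquitin ligase that removes p53 again, so that the pathway limits itself. Many of these genes also respond to stress, growth factor or TGF-beta signals by routes that do not need p53, which is how they can be expressed in a line without it.

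TP63, a p53 relative of epithelial stem cells, was at 1.08 mean counts and −0.11 ± 1.36 in the authors' deposited table, too few counts to show a difference of the size seen in the genes below. TP73, which can bind many of the same elements, was called higher at 0.80 ± 0.27 in the authors' deposited table (adjusted p = 0.00546), on 23.2 mean counts. ALDH18A1, the target of the hairpin, missed the threshold, at −0.19 ± 0.12 in the authors' deposited table (adjusted p = 0.173). Its interval, from −0.44 to 0.05 on 846 mean counts, allows at most a 1.35-fold difference either way. No large difference in the hairpin's target is therefore seen in this measure, and its mRNA and protein levels were not tested.

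Of the 10 genes, 6 were called lower and PLK3 alone was called higher, while GADD45B, BTG2 and MDM2 were not called. Of all genes in the authors' deposited table, 29.4% were called lower and 28.9% higher, or 58.4% in either direction, so the count of 7 called members is near the background and the share of lower ones among them is above it. The median log2 fold change of the 10 genes was −0.96, against 0.02 over all genes in the authors' deposited table. With the authors' own marks (an unadjusted p under 0.05 and a log2 fold change beyond 1), CDKN1A, GADD45A, PLK2, BTG2 and TP53INP1 were down and PLK3 was up, where 9.24% and 15.2% of all genes were marked down and up in the authors' deposited table. Counting called genes that also differed by at least 1 on the log2 scale, 4 members were lower and PLK3 higher, beside 8.97% and 14.7% of all genes in the authors' deposited table. These shares were not tested, and the members were chosen with earlier results of these data known.

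**Figure D1:**
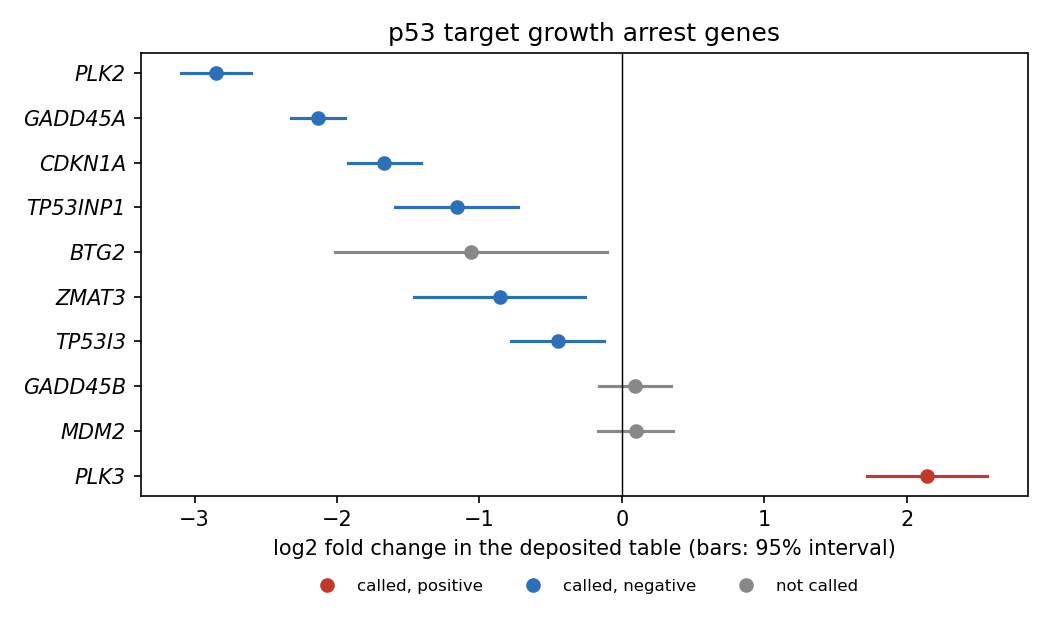
Log2 fold change of the 10 genes (x axis, points) with its 95% interval (bars), sorted from the lowest. PLK2, GADD45A and CDKN1A lie below −1.4 over their whole intervals, GADD45B and MDM2 straddle 0, and PLK3 lies at 2.14.

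Windows of 250 bases before an annotated start were read, to show what DNA lies there. Shown are PLK2 and PLK3, the extremes of the set, CDKN1A, and MDM2, the gene with the textbook p53 element. The CDKN1A window lies inside the annotated span of its gene, so it belongs to an internal start. The sequences are from RefSeq, build GRCh38.p14, written 5′ to 3′ along the gene. Of the 10 genes, 8 matched the promoter table, all but GADD45A and TP53INP1, with 12 windows between them. Capitals mark the p53 element in MDM2 and matches to the GC box, GGGCGG on either strand, which factors of the SP1 and KLF families bind, in the other genes. In CDKN1A the last pair of GC boxes overlap by a base and form a single run of capitals.
MDM2, the internal promoter at chr12:68808767-68809016, plus strand: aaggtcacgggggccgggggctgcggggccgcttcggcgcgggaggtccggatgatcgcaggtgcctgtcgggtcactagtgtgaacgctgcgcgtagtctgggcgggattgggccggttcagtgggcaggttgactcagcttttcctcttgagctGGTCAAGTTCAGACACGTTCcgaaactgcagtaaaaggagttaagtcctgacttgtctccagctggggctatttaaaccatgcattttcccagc
CDKN1A, chr6:36678464-36678713, plus strand: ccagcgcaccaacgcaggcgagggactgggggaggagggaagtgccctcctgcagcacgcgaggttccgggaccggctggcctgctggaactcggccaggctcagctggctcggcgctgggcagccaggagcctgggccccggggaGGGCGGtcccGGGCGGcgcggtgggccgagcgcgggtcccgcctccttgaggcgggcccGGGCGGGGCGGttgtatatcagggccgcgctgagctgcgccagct
PLK2, chr5:58460087-58460336, minus strand: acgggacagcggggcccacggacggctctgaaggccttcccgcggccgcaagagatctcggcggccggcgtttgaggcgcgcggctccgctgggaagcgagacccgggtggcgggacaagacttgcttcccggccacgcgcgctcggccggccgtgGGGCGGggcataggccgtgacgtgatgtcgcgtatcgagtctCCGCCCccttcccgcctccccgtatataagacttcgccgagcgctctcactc
PLK3, chr1:44800127-44800376, plus strand: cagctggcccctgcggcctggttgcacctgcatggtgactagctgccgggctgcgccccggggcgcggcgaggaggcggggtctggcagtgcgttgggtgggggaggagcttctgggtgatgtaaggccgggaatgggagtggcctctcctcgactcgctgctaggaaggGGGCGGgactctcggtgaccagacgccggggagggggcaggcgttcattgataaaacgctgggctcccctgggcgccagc

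The p53 element was searched by name as a pair of adjoining p53 decamers with at most 1 base between them, at most 2 mismatches in 20 letters, and each decamer's central C and G kept. It was found in 155 of 35116 RefSeq windows (0.441%). Among the 8 members with windows read, it was found in the internal promoter of MDM2 alone. There it lay in a pair of overlapping windows whose starts differ slightly, 94 bases before the start in the window shown and 101 in the other. No match in the other windows says only that these letters are not in those 250 bases, since p53 elements can lie further away or within introns. A GC box was present in 42.6% of all windows. CDKN1A had 4, BTG2 had 3, PLK2 had 2 and PLK3 had 1, whereas the windows of TP53I3 and GADD45B had 0. ZMAT3 had 1 in the first of its windows along the gene and 0 in the other, and the MDM2 windows had 0 or 1. Both ZMAT3 windows lie inside the annotated span of the gene. The windows of CDKN1A, PLK2 and PLK3 were 76.4%, 71.2% and 70.0% G or C, against a median of 58.0% over all windows. BTG2, ZMAT3 in the first of its windows and MDM2 in its outer promoter were as rich, at 74.8%, 75.2% and 74.4%, and GADD45B (63.2%) and TP53I3 (51.2%) less so. Neither feature separated the lower members with windows read from PLK3, and the lower members GADD45A and TP53INP1 were not covered. A match is a description of sequence, not of a bound factor.

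Among the direct brakes on the cell cycle, CDKN1A was called lower at −1.67 ± 0.13 in the authors' deposited table (adjusted p = 3.97e-35), a 3.18-fold difference. Its interval ran from −1.93 to −1.41, and its mean normalized count was 330.4 in the authors' deposited table. CDKN1A ranked 570th from the lowest of all genes, at the 3.74th percentile, and at the 1.67th percentile of the bin holding its mean count, when genes were cut into 10 equal bins by that count. The gene (Entrez ID 1026) spans chr6:36676463-36687332 and overlaps the long noncoding RNA gene DINOL by 951 bases.

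The paralogs of CDKN1A stood on the other side. CDKN1B, which encodes the kinase inhibitor p27, was called higher, at 1.13 ± 0.18 in the authors' deposited table (adjusted p = 6.11e-10). CDKN1C, which encodes p57, was called higher at 2.40 ± 0.36 in the authors' deposited table (adjusted p = 1.01e-10), on 15.4 mean counts. Neither interval overlapped that of CDKN1A, and the differences in log2 fold change from CDKN1A were 2.79 for CDKN1B and 4.07 for CDKN1C. The fold changes come from the same libraries, so these differences were not tested.

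GADD45A and GADD45B encode small stress sensors that bind the kinase MAP3K4, PCNA and the CDK1-cyclin B complex, and both are induced by stress without p53 as well as with it. GADD45A was called lower at −2.13 ± 0.10 in the authors' deposited table (adjusted p = 5.58e-107), a 4.39-fold difference on 958 mean counts. It ranked 320th from the lowest of all genes and at the 0.295th percentile of its count bin. GADD45B was at 0.09 ± 0.13 in the authors' deposited table (adjusted p = 0.556), and its interval, from −0.16 to 0.34, allows at most a 1.27-fold difference either way. Their intervals did not overlap, and their fold changes differed by 2.23 on the log2 scale. GADD45A lies at chr1:67685201-67688334 and GADD45B at chr19:2476127-2478257, and neither overlaps another annotated gene.

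PLK2 and PLK3 are polo-like kinases of the stress-responsive branch of the family, unlike PLK1, which drives mitosis. PLK2 had the lowest fold change of the set, −2.85 ± 0.13 in the authors' deposited table (adjusted p = 6.59e-110), a 7.20-fold difference on 1247 mean counts. It ranked 164th from the lowest of all genes and at the 0.164th percentile of its count bin. PLK3 was called higher at 2.14 ± 0.22 in the authors' deposited table (adjusted p = 2.68e-22), a 4.42-fold difference on 60.2 mean counts.

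The fold changes of PLK3 and PLK2 lay 4.99 apart on the log2 scale, the widest gap between paralogs compared here. PLK1 was called higher at 1.49 ± 0.16 in the authors' deposited table (adjusted p = 1.16e-20). PLK4, the kinase of centriole duplication, was just past the threshold at 0.44 ± 0.20 in the authors' deposited table (adjusted p = 0.0484). PLK2 was therefore the only listed polo-like kinase gene among these with a negative sign. The span of PLK3 (chr1:44800377-44805990) overlaps that of DYNLT4 by 98 bases, and PLK2 (chr5:58453982-58460086) overlaps no annotated gene.

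**Figure D2:**
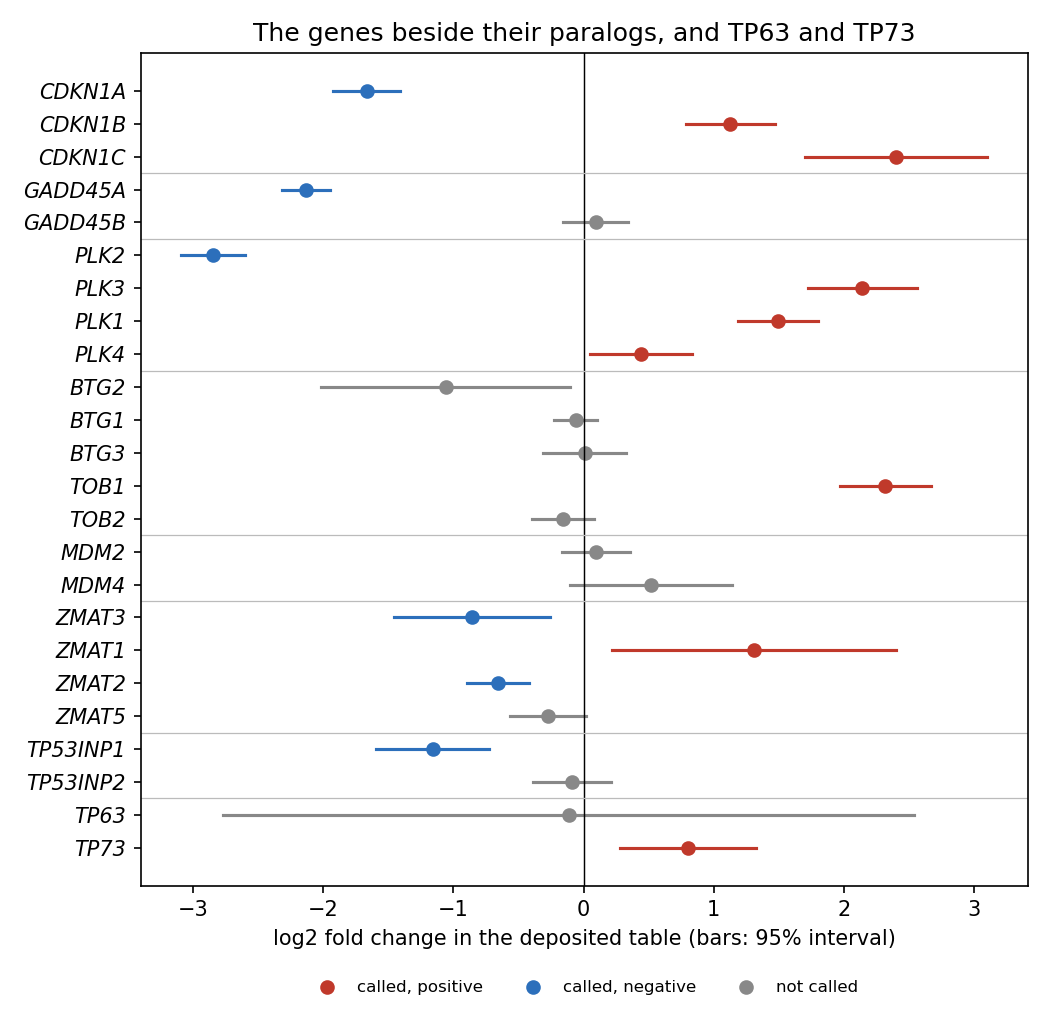
Log2 fold change (x axis) with its 95% interval for the members and their measured paralogs, family by family, and for TP63 and TP73. TP53I3 and its paralogs CRYZ and CRYZL1 are not drawn. CDKN1A and PLK2 lie below 0 while their paralogs lie above it, and the interval of TP63 runs from −2.77 to 2.54.

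BTG2 encodes an antiproliferative protein that brings the CCR4-NOT deadenylase to mRNAs. The gene lies at chr1:203305519-203309602. It had the fewest counts of the set, 9.09, and stood at −1.06 ± 0.49 in the authors' deposited table, with an adjusted p of 0.0505. Its interval ran from −2.02 to −0.11, so it allows anything from a small difference to a 4.05-fold one, and the counts behind BTG2 limit what can be said of it. Its relatives BTG1, BTG3 and TOB2 missed the threshold, at −0.06 ± 0.09, 0.01 ± 0.16 and −0.16 ± 0.12 in the authors' deposited table. TOB1, another antiproliferative member of the family, was called higher at 2.32 ± 0.18 in the authors' deposited table (adjusted p = 2.90e-37). Of the deadenylation partners of BTG2, none of CNOT7, CNOT8 and PABPC1 was called, with values between −0.15 and 0.33 in the authors' deposited table.

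MDM2 was at 0.10 ± 0.13 in the authors' deposited table (adjusted p = 0.561) on 277 mean counts. Its interval, from −0.17 to 0.36, allows at most a 1.28-fold difference either way, which excludes a change as large as those of CDKN1A, GADD45A and PLK2. Its relative MDM4, which binds and restrains p53 without removing it, was at 0.52 ± 0.32 in the authors' deposited table (adjusted p = 0.155). MDM2 (chr12:68808172-68850686) overlaps CPM over 8490 bases, and CPM was at 3.00 ± 0.15 in the authors' deposited table. How reads of the shared stretch were split between MDM2 and CPM is not given in the sources used here.

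The remaining members were called lower by smaller amounts and on fewer counts. TP53INP1, which acts in autophagy and in the response to oxidative stress, was at −1.16 ± 0.22 in the authors' deposited table (adjusted p = 6.02e-07), a 2.24-fold difference on 61.4 mean counts. Its paralog TP53INP2 missed the threshold, at −0.09 ± 0.15 in the authors' deposited table. ZMAT3, a zinc finger protein that binds RNA and affects splicing and mRNA stability, was at −0.86 ± 0.31 in the authors' deposited table (adjusted p = 0.00995). TP53I3, a quinone oxidoreductase linked to reactive oxygen species, was at −0.45 ± 0.17 in the authors' deposited table (adjusted p = 0.0126), a 1.37-fold difference.

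The ZMAT relatives went different ways. ZMAT2, a splicing factor, was called lower at −0.66 ± 0.12 in the authors' deposited table (adjusted p = 2.26e-07), while ZMAT1 was called higher at 1.31 ± 0.56 (adjusted p = 0.0330), on 9.72 mean counts. ZMAT5, a protein of the minor spliceosome, missed the threshold, at −0.27 ± 0.15 in the authors' deposited table. The quinone oxidoreductase relatives of TP53I3, CRYZ and CRYZL1, missed the threshold, at 0.14 ± 0.08 and −0.18 ± 0.19 in the authors' deposited table. ZMAT3 lies at chr3:179017223-179072513 and overlaps no annotated gene. TP53I3 (chr2:24077433-24084834) lies wholly within the span of FAM228B, which was at −1.98 ± 0.49 in the authors' deposited table, and TP53INP1 wholly within that of NDUFAF6, at −0.10 ± 0.19. The part that shared reads play in the values of TP53I3 and TP53INP1 was not tested.

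Of 17 paralogs looked for across the families, 15 were measured, with 6 called higher, 1 lower and 8 not called, at a median of 0.14 in the authors' deposited table. Among the members, 6 of 10 were lower, and of all genes 29.4% were lower and 28.9% higher. The difference between members and paralogs was not tested, and both lists were chosen with earlier results of these data known. The 5 members at or above the median mean count of 150.2 held the 3 largest differences on the negative side (PLK2, GADD45A and CDKN1A) and both members nearest to 0 (GADD45B and MDM2). Of genes at or above that count, 71.8% were called in the authors' deposited table, against 45.0% below it.

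**Figure D3:**
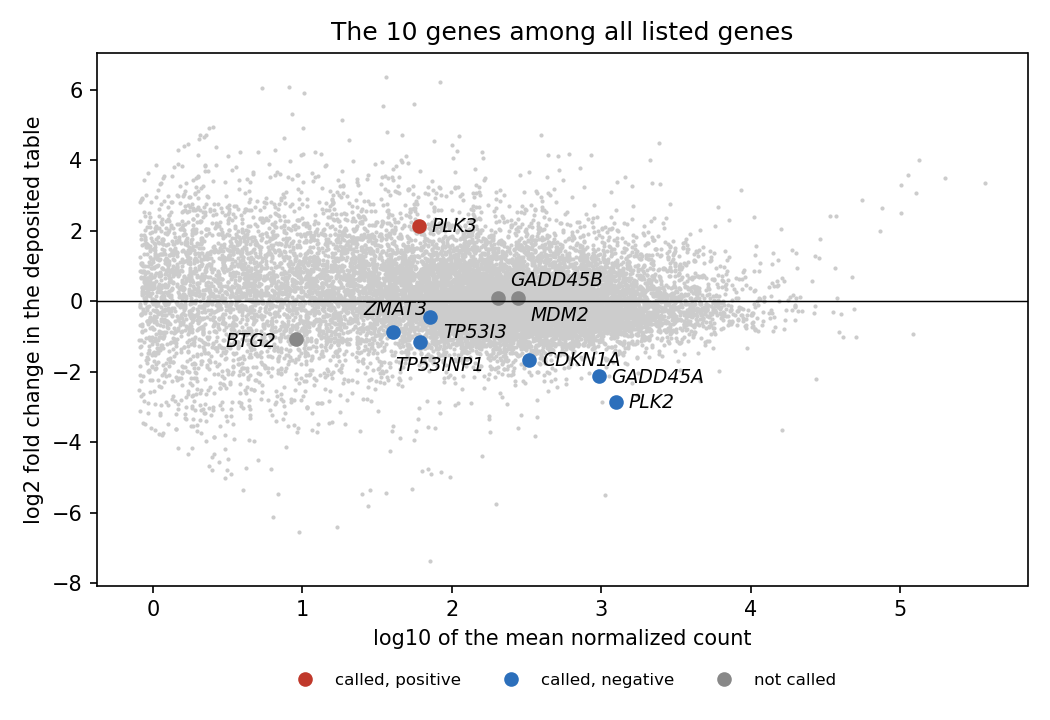
Log2 fold change (y axis) against log10 of the mean normalized count (x axis) for the 15243 genes (grey points), with the 10 members named. GADD45A and PLK2 lie at the lower edge of the genes with similar counts, and BTG2 lies where genes with few counts scatter widely.

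A wider list of 79 other p53 targets served to set the members beside the rest of the pathway, and 74 of them were measured. Of these, 26 were called higher, 21 lower and 27 not called, with a median of 0.08 in the authors' deposited table. Of all genes, 28.9% were called higher and 29.4% lower, so the count of lower ones among the other targets is near the background. Lower genes made up 6 of 10 members and 21 of 74 other targets, a difference that was not tested. The members and lists were chosen with earlier results of these data known. Among 11 further cell cycle targets 6 were lower and 3 higher, with a median of −0.30, and the difference from all genes was not tested. Of genes at or above the median mean count, which 8 of these 11 reached, 41.5% were lower and 31.4% higher. SFN, which encodes the 14-3-3 sigma protein that holds cells in G2, had the lowest value of the wider list at −3.55 ± 0.34 in the authors' deposited table, on 40.3 mean counts. The highest was that of the signalling target DGKA, at 2.31 ± 0.19 on 140 mean counts. FBXW7 had the highest value of the cell cycle targets, at 1.21 ± 0.18 in the authors' deposited table. CCNG1, which encodes cyclin G1, was called higher, at 0.61 ± 0.10. PPM1D, a phosphatase that switches p53 signalling off, was lower at −0.50 ± 0.13 in the authors' deposited table.

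Of 14 measured apoptosis targets, 7 were higher, 3 lower and 4 not called, at a median of 0.49, beside 28.9% higher and 29.4% lower of all genes in the authors' deposited table. The difference from all genes was not tested. The death receptor gene FAS was at 1.93 ± 0.14 and PERP, a desmosome-associated effector, at 1.36 ± 0.13 in the authors' deposited table. The pro-apoptotic genes BBC3 (PUMA) and PMAIP1 (NOXA) differed in sign, at −0.87 ± 0.23 and 1.25 ± 0.28 in the authors' deposited table. BAX missed the threshold, at −0.02 ± 0.13, and AEN, an apoptotic nuclease, was lower at −1.20 ± 0.12 in the authors' deposited table. Of 6 DNA repair targets, DDB2 alone was called, higher at 0.71 ± 0.15 in the authors' deposited table (adjusted p = 3.34e-06).

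Of all genes, 28.9% were higher and 29.4% lower in the authors' deposited table, and none of the following counts was tested against them. Of 11 targets in metabolism, redox and autophagy, 5 were higher and 2 lower. SESN2, a stress-induced inhibitor of mTORC1, was lower at −1.47 ± 0.20 and TIGAR, which lowers glycolytic flux, at −0.67 ± 0.09 in the authors' deposited table. STEAP3, a ferrireductase, was called higher, at 1.42 ± 0.10 in the authors' deposited table. Of 16 signalling, secreted and surface targets, 8 were higher and 4 lower. ATF3, a stress-induced transcription factor, was at −2.54 ± 0.14 and the immediate-early gene IER5 at −1.42 ± 0.20, against 1.30 ± 0.08 for the semaphorin receptor gene PLXNB2 in the authors' deposited table. Among the remaining 16, with 2 higher and 6 lower, TM7SF3 was at 1.17 ± 0.11 and CCDC90B at −1.31 ± 0.15 in the authors' deposited table.

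**Figure D4:**
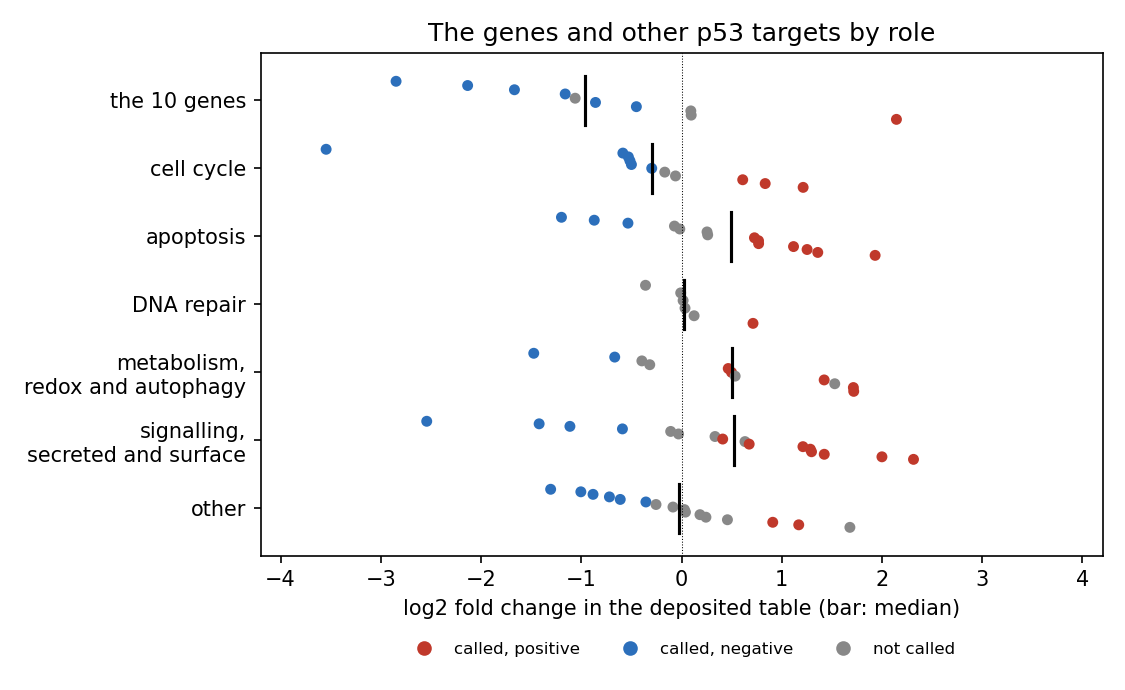
Log2 fold change (x axis) of the 10 members and of 74 other p53 targets by role, one point a gene, with the median of each group as a black bar. The median of the members is −0.96, that of the apoptosis targets 0.49 and that of the DNA repair targets 0.03.

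The partners that p21 binds were called in both directions. Of 11, 5 were higher, 5 lower and PCNA not called (−0.07 ± 0.11 in the authors' deposited table). Of all genes, 28.9% were higher and 29.4% lower. Of genes at or above the median mean count, which 9 of the 11 partners reached, 31.4% were higher and 41.5% lower. No difference from these shares was tested. All 3 D-type cyclin genes were called higher, CCND1 at 2.13 ± 0.17, CCND2 at 1.09 ± 0.24 and CCND3 at 2.46 ± 0.16 in the authors' deposited table, whereas their kinases CDK4 (−0.94 ± 0.15) and CDK6 (−1.04 ± 0.11) were called lower. The E-type cyclins were lower, CCNE1 at −3.29 ± 0.11 and CCNE2 at −0.53 ± 0.14 in the authors' deposited table, whereas their kinase gene CDK2 was higher at 0.44 ± 0.13. CDK1, the mitotic kinase, was lower at −1.35 ± 0.19, and CCNA2 stood at 0.37 ± 0.11, called higher in the authors' deposited table. Cyclins and their kinases thus carried opposite signs in both the D-type and the E-type pairs. Of the GADD45 partners, the authors' deposited table had CCNB1 higher at 0.41 ± 0.08, and MAP3K4 and MAPK14 were not called.

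**Figure D5:**
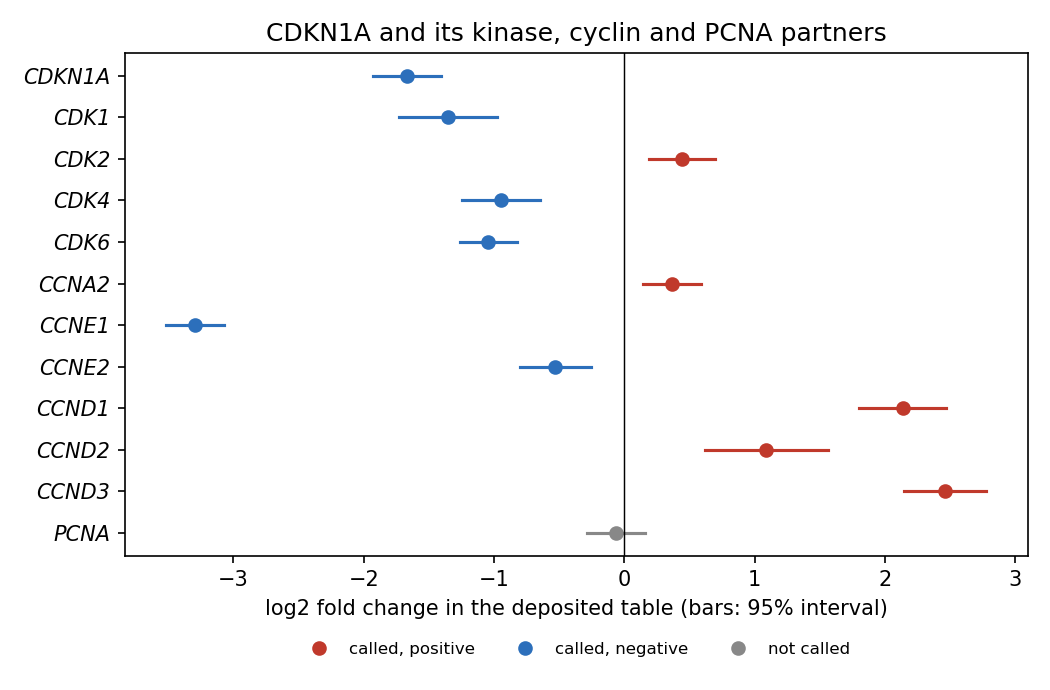
Log2 fold change (x axis) with its 95% interval for CDKN1A and the cyclin, kinase and PCNA genes whose products p21 binds. CCND1, CCND2 and CCND3 lie above 1 and CCNE1 at −3.29, with PCNA at −0.07.

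Upstream of p53, 5 of 12 regulators were lower, 2 higher and 5 not called. Of all genes, 29.4% were lower and 28.9% higher in the authors' deposited table. Of genes at or above the median mean count, which 11 of the 12 regulators reached, 41.5% were lower and 31.4% higher. The count of lower regulators is near that share. The DNA damage kinase genes ATM (−0.90 ± 0.20) and CHEK1 (−0.75 ± 0.12) and the p53-binding scaffold gene TP53BP1 (−0.91 ± 0.08) were lower in the authors' deposited table. The acetyltransferase gene KAT5 (−0.51 ± 0.09) and USP7, which removes ubiquitin from MDM2 and p53 (−0.46 ± 0.13), were also lower in the authors' deposited table. CHEK2 (0.65 ± 0.09) and CDKN2A (1.27 ± 0.28), whose ARF product inhibits MDM2, were higher in the authors' deposited table, and ATR was not called.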

How the data were processed

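The series holds 6 Ribo-seq samples, 3 shALDH18A1 and 3 shControl, grouped by title. The submitters' processing notes name hg38, featureCounts, STAR (version 2.7.10a) and fastp (version 0.23.2). Strand use, annotation and footprint lengths are not stated there. The authors deposited a single comparison table of 15244 entries, with 0 columns of values per sample. Its mean is a normalized signal on a count scale, per the file headers. The deposited fold change and SE were taken as log2 from the column layout. The deposited statistic is a score equal to fold change over SE, and the deposited p-value and adjusted p-value are its two-sided normal p and Benjamini-Hochberg value (largest difference 7.42e-06).

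A repeated symbol was kept once, which left 15243 genes. Calls, intervals, ranks and list counts were made from the deposited values in Python 3.11.15 (numpy 2.4.6, scipy 1.17.1, pandas 2.3.3, matplotlib 3.10.9), and the adjustment steps were tested on simulated data. Positions, overlaps and promoters are RefSeq's, GRCh38.p14. No test per sample or per list was run, and protein features were not used here. The members and lists were chosen with earlier results of these data known. Named genes were all members, TP63, TP73, called paralogs, called partners and regulators, ALDH18A1, and the 5 highest and 5 lowest called targets at or above the median mean count. Uncalled relatives and partners, SFN, DGKA, FBXW7, CCNG1, PPM1D, BBC3, PMAIP1, BAX, DDB2, TIGAR, CPM, FAM228B and NDUFAF6 were named after their values were seen. Not every gene of the planned lists is reported here.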

Additional observations from a re-analysis of the deposited data

How the results depend on the processing

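Apart from centring on the median of all genes, which moved every fold change by 0.02, the settings leave the fold changes as they are, so they bear on calls and not on signs. PLK2, GADD45A, CDKN1A, TP53INP1 and PLK3 stayed called under every setting that tested them. TP53I3 was not called at an adjusted p under 0.01, with a minimum fold of 1.5 or a log2 minimum of 1, with Benjamini-Yekutieli or Bonferroni adjustment, or by the authors' marks. ZMAT3 was not called with the log2 minimum of 1, either of those adjustments, or the marks. BTG2 was called lower at an adjusted p under 0.1, after centring on the median of all genes (−1.08) and by the marks, a setting chosen after seeing the data. Restricted to genes at or above the median mean count, 3 members were lower and 0 higher, since PLK3 and the other members with few counts were left out. Of all genes at or above that count, 41.5% were lower and 31.4% higher. Other p53 targets numbered 15 higher and 8 lower with a log2 minimum of 1, 17 and 10 with Bonferroni adjustment, 10 and 12 at or above the median mean count, and 17 and 8 by the marks. Of all genes, 19.3% were lower with a minimum fold of 1.5. With a log2 minimum of 1, 14.7% were higher and 8.97% lower, with Bonferroni adjustment 15.3% and 15.5%, and by the marks 15.2% and 9.24%. These fall because each rule is stricter or tests fewer genes. No paired analysis was possible because the table has no values per sample, and for the same reason no replicate could be left out and no other normalization tried. Precision follows the counts: the median SE was 0.123 at or above the median mean count and 0.341 below it.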

Other observations

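Transcription factors known to control CDKN1A without p53 were called in both directions, with 4 of 10 lower, 2 higher and 4 not called. Of all genes, 29.4% were lower and 28.9% higher. Of genes at or above the median mean count, which 8 of the 10 factors reached, 41.5% were lower and 31.4% higher. The count of lower factors is near that share, and no difference was tested. KLF6 (−0.92 ± 0.07), FOXO3 (−0.82 ± 0.11), SMAD4 (−0.60 ± 0.10) and STAT3 (−0.58 ± 0.07), which can activate CDKN1A, were lower in the authors' deposited table. E2F1, another activator, was higher at 0.49 ± 0.13, as was MYC, a repressor of CDKN1A, at 0.62 ± 0.11 in the authors' deposited table. The activators SMAD3 (0.02 ± 0.17) and FOXO1 (0.71 ± 0.36) missed the threshold in the authors' deposited table. SP1, which binds GC boxes, missed the threshold at 0.08 ± 0.11, and KLF4 missed it with an adjusted p of 0.0531, both in the authors' deposited table. The values describe the same libraries as those of CDKN1A, and no link between them was tested.

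A rough check of the cell line used mean normalized counts, which are not scaled for length. The epithelial keratin genes KRT8 and KRT18 had counts of 6396 and 6869 and VIM one of 22046 in the authors' deposited table. The epithelial genes EPCAM and CDH1 had 11.4 and 1.95 and the lung lineage factor NKX2-1 had 3.24 in the authors' deposited table. The endothelial genes PECAM1, CDH5 and VWF had 1.56, 2.21 and 13.2, and the fibroblast genes DCN, PDGFRB and COL1A1 had 5.18, 26.1 and 26.9 in the authors' deposited table. PDGFRB was the only gene of the leukocyte, endothelial and fibroblast lists that was called, at 1.59 ± 0.30 in the authors' deposited table (adjusted p = 6.36e-07), and its part in the results was not tested. The leukocyte gene CD68, which many tumour lines also express through their lysosomes, had 2213 in the authors' deposited table. The other leukocyte genes looked for, PTPRC and CD3E, were not among the listed genes. Nor were the other lung lineage genes looked for, NAPSA and SFTPB.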
